A study of Mus musculus with 27 samples.

Results

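The miRNAs described here lie on mouse chromosome 12, plus strand, between the maternally expressed noncoding gene Meg3 and the noncoding gene Rian, in the imprinted Dlk1-Dio3 domain. They were chosen by name and position with no measured value, although earlier results of these data were known. The choice took every miRNA entry of the deposited small RNA table that starts in this interval. There were 22 of them among 483 miRNA entries and 1013 entries in all, belonging to 13 miRNA genes: 21 mature arms and the hairpin entry mmu-mir-370. Levels in RPM (read counts relative to library size) were listed for 27 libraries, 3 for each of 3 fractions (chromatin, nucleoplasm in its soluble part, and cytoplasm) from 3 mouse cell cultures, for which the labels name no mutation. The cells were mESC, the E14 embryonic stem cell line kept with LIF; mNPC, a neural progenitor line that the submitters established, given EGF and FGF daily at 10 ng/ml; and mCtx, primary cortical neurons after 5 days in culture. The age of the donor animals is not given in the labels, mESC and mNPC are 1 line each, and nothing in the labels says whether the 3 biological replicates of a group were grown apart. A p-value here therefore rests on the spread among replicate libraries, which could be technical in origin. In the linear model fits (limma) this spread was pooled over all 9 groups of 3 libraries.

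In this domain the maternal chromosome transcribes Meg3, Rian, Mirg and an RNA antisense to Rtl1, while the paternal chromosome expresses the protein-coding genes Dlk1, Rtl1 and Dio3. The miRNAs and C/D box snoRNAs of the maternal transcripts are processed from these long RNAs. A hairpin precursor is cleaved in the nucleus by Drosha and in the cytoplasm by Dicer, and one arm of the resulting duplex, 5p or 3p, is preferentially kept by an Argonaute protein, which finds targets through the seed, bases 2 to 8. The miRNAs that lie antisense to Rtl1 pair with its mRNA along their whole length and are known to direct its cleavage. Expression of the maternal transcripts is known to be lost in some cultured mouse stem cell lines.

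By annotation the members lay in 4 settings (coordinates in GRCm38, 1-based). The gene of miR-770 lies in an exon of Meg3, and its 5p arm maps to chr12:109563710-109563731. The genes of miR-673, miR-493, miR-337, miR-540 and miR-665 lie downstream of Meg3 in no annotated host gene, from the start of miR-673-5p at 109572004 to the end of miR-665-3p at 109586387. The genes of miR-431, miR-433, miR-127, miR-434 and miR-136 lie on the strand opposite the coding sequence of Rtl1, from 109590459 to 109595387. The genes of miR-341 and miR-370 lie in introns of Rian, from 109611521 to 109618336. All 22 entries matched a RefSeq miRNA at the same coordinates, and the sequences below are RefSeq's for GRCm38.p6.

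The mature sequences that the comparisons turn on are shown 5′ to 3′ with the seed in capitals, in their order along the chromosome. They are printed to show that these neighbouring miRNAs share no seed.
mmu-miR-673-5p: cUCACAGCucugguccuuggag
mmu-miR-337-5p: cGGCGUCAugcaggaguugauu
mmu-miR-540-3p: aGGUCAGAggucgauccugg
mmu-miR-665-3p: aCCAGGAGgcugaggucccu
mmu-miR-431-5p: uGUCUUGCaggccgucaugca
mmu-miR-431-3p: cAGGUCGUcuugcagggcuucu
mmu-miR-127-5p: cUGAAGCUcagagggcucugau
mmu-miR-127-3p: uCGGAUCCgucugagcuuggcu
mmu-miR-434-5p: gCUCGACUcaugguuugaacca
mmu-miR-434-3p: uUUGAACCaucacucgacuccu
mmu-miR-136-3p: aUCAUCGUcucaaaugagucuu
mmu-miR-370-3p: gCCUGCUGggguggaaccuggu
No 2 of the 21 mature members had the same seed. Among the other miRNA entries of the table, miR-1193-3p had the seed of miR-370-5p, and no other seed of a member was repeated.

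The 9 mature members antisense to Rtl1 each had a fully complementary site in the coding sequence of an annotated Rtl1 transcript. This follows from their lying on the strand opposite that sequence, and further sites were not searched for. The site of the most abundant member, miR-127-3p, spans bases 2642 to 2663 of that transcript, and the site of miR-434-3p spans bases 965 to 986. They are given as DNA with the bases that pair with the seed in capitals.
Rtl1 site of miR-127-3p: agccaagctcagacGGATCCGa
Rtl1 site of miR-434-3p: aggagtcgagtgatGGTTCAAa
The hairpins of the miRNAs whose arms were compared show how the arms sit on either side of the loop, with both mature arms in capitals.
Mir127: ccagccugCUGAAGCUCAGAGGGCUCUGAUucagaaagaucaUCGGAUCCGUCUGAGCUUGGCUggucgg
Mir431: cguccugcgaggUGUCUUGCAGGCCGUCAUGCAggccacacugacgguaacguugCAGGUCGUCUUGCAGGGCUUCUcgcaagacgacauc
Mir434: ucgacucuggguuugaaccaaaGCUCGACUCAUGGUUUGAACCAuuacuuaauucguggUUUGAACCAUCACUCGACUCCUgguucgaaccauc

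The start of Meg3, the gene that the members lie in or downstream of, is shown as well. Most members have no annotated host gene, and neither long transcripts nor promoter activity were measured here, so a shared start was not tested. The RefSeq promoter window of Meg3, 250 bases before to 50 after the start, lies at chr12:109540746-109541045 on the plus strand.
Meg3 promoter: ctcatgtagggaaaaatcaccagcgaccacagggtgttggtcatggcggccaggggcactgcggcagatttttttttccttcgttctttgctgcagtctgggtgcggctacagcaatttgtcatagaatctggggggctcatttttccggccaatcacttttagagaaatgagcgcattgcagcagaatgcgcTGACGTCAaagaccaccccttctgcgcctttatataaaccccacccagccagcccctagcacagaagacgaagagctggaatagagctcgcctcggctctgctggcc
The capitals mark the only match to TGACGTCA, the palindromic cAMP response element, which reads the same on both strands. This motif occurred in 588 of 32851 promoter windows of the same length (1.79%). The window held 13 CpG, and 37.91% of all windows held as many. A second annotated Meg3 start had a window with 1 CpG and no match. Such matches describe letters and not binding.

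Every library had a lowest value above 0, between 5.16 and 59.1 RPM, and anything lower was listed at 0, which does not mean absence. Marker miRNAs went with the labels: the stem cell miRNAs (the miR-290 and miR-302 families) summed to between 19861 and 93945 RPM in mESC and were at 0 in all mNPC and mCtx libraries, and the neuronal miRNAs (miR-124 and others) summed to 16769 to 49420.0 RPM in mCtx against at most 1679.5 RPM elsewhere. The progenitor miRNAs miR-9 and miR-92b summed to 35131 to 111178 RPM in mNPC but also to 45651 to 139890.5 RPM in mCtx, so they do not tell mNPC from mCtx. Of the lists for other cell types, 5 endothelial and mesenchymal miRNAs summed to 949 to 7629 RPM in mESC, 112 to 345 RPM in mNPC and 2192 to 4158 RPM in mCtx, with miR-145a, miR-199a and miR-199b at 0 in mNPC and also in mESC and mCtx chromatin. That list is thus low in mNPC as the members are, and its part in the mNPC results was not tested. The 2 microglia and blood miRNAs summed to at most 1774 RPM in mESC, 373 RPM in mNPC and 1426 RPM in mCtx, with miR-142a at 0 in mNPC, and the 2 oligodendrocyte and glia miRNAs to 0 in mESC, at most 288 RPM in mNPC and at most 101 RPM in mCtx. In mESC chromatin, miRNA entries made up 24.7% to 30.4% of the listed signal, against 53.6% to 96.2% in the other groups, so values there also depend on what else was in the library. The library mCtx cytoplasm replicate 1 stood apart for miR-434-3p, and within its group also over all entries. Its Pearson correlation of log2(RPM + 1) was 0.86 with replicate 2 and 0.861 with replicate 3, against 0.965 between those. Its lowest value above 0 was 18.6 RPM, against 9.31 and 8.4 RPM. Correlations in some other groups were as low, down to 0.817 in mESC nucleoplasm.

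Only miR-127-3p was listed above 0 in mNPC. The other 21 members were at 0 in all 9 mNPC libraries, while in mESC and mCtx the 22 members together made up 3.36% to 7% of all miRNA RPM. In mNPC that share was at most 0.0211%. In bulk RNA, fewer cells making a miRNA and less of it per cell cannot be told apart.

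**Figure D1:**
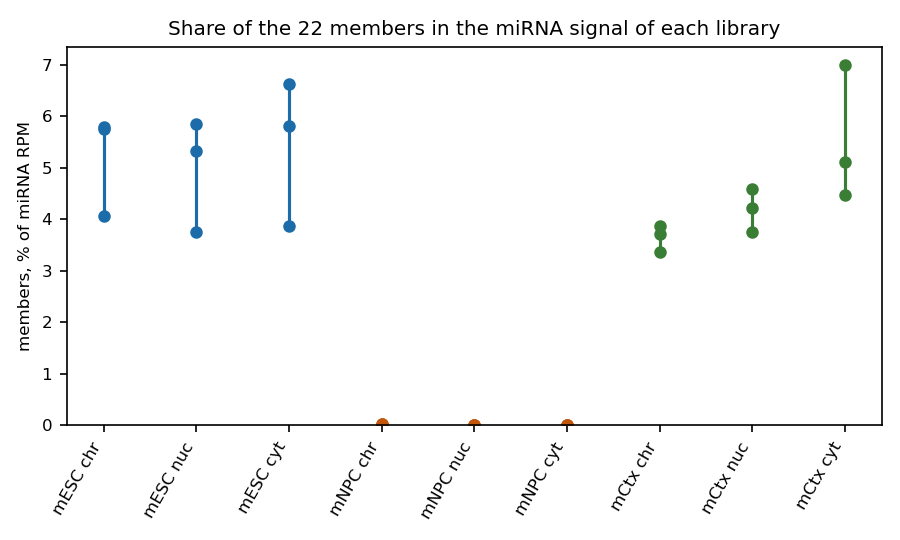
Summed RPM of the 22 members as a percentage of the RPM of all miRNA entries (vertical axis) in each of the 9 groups (horizontal axis; chr, chromatin; nuc, nucleoplasm; cyt, cytoplasm); points are the 3 libraries of a group, joined by a line. mESC and mCtx libraries lie between 3.36% and 7%, and mNPC libraries between 0 and 0.0211%.

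miR-127-3p itself was at 133, 84.7 and 0 RPM in mNPC chromatin (replicates 1 to 3), at 94, 71.4 and 39.2 RPM in nucleoplasm, and at 69.7, 79.1 and 0 RPM in cytoplasm. Its mESC levels were 6685, 7576 and 9409 RPM in chromatin, 18177, 25014 and 24590.0 RPM in nucleoplasm, and 17236, 29205 and 27608 RPM in cytoplasm. Its mCtx levels were 14698, 16143 and 14042 RPM in chromatin, 30252, 22756 and 26932 RPM in nucleoplasm, and 35014, 24786 and 27717 RPM in cytoplasm. No mNPC library came near the lowest mESC or mCtx library, while the mESC and mCtx libraries overlapped in nucleoplasm and cytoplasm. Between the nucleoplasm groups, none of whose libraries was at 0, miR-127-3p was lower in mNPC than in mESC by a log2(RPM + 1) difference of -8.42 (SE 1.42, limma, adjusted p = 3.69e-05) and higher in mCtx than in mNPC by 8.67 (SE 1.42, adjusted p = 4.96e-05).

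Of the 22 members, 19 reached 1 RPM in at least 3 libraries and were tested. The remaining 3, miR-493-3p, miR-540-5p and miR-341-5p, were above 0 in 1 mESC library each, at 40.9, 15.7 and 31.5 RPM. mNPC was lower than mESC for 11 of the 19 tested members in chromatin, 15 in nucleoplasm and 15 in cytoplasm, and higher for none. Of all 851 tested entries, 29%, 35.8% and 27.5% were lower in those comparisons and 15.9%, 12.8% and 14.1% higher. mCtx was higher than mNPC for 14 tested members in chromatin, 17 in nucleoplasm and 16 in cytoplasm, and lower for none, against 16%, 23.5% and 21.5% of all tested entries higher and 11.9%, 10.3% and 10.8% lower. The 18 tested members at 0 in all of mNPC could not have been higher there, so only miR-127-3p could have gone the other way. The median member difference, mNPC minus mESC, was -4.61, -7.99 and -8.08 on the log2(RPM + 1) scale, but these sizes depend on the added 1 because mNPC was at 0. With every value under 59.1 RPM raised to it, the medians were -0.67, -2.08 and -2.18, and 9, 14 and 13 members were lower. The median over all tested entries was 0, -1.2 and 0. Raising low values left 9, 12 and 10 members higher in mCtx than in mNPC. miR-370-5p passed against mNPC in no fraction, and miR-770-5p and mmu-mir-370, at 0 in both mESC and mNPC, passed only for mCtx, in nucleoplasm (adjusted p = 0.000274) and cytoplasm (adjusted p = 0.014) respectively. Differences between fractions within mNPC could not be assessed for 18 of the 19 tested members, which were at 0 in all 9 libraries.

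Low levels in mNPC extended to the rest of the domain. Of 49 other miRNA entries of the Dlk1-Dio3 domain, 47 were at 0 in all mNPC libraries (95.9%), as were all 12 domain snoRNA entries, compared with 152 of 396 miRNA entries outside it that were above 0 in mESC or mCtx (38.4%). Over entries of all classes outside the domain this was 350 of 907 (38.6%). Among entries above 0 in all 18 mESC and mCtx libraries, 6 of 7 members and 8 of 10 other domain miRNAs were at 0 in all of mNPC, against 1 of 70 miRNAs outside the domain. No domain snoRNA was above 0 in all 18. Of the 9 domain snoRNAs tested, mNPC was lower than mESC for 6 in chromatin, 1 in nucleoplasm and 0 in cytoplasm, so for them the difference was mostly one of chromatin. Of the 41 other domain miRNAs tested, mNPC was lower than mESC for 17 in chromatin, 31 in nucleoplasm and 27 in cytoplasm and higher for none. Entries at 0 in all of mNPC could not be higher there. The domain miRNA outside the interval with the highest mean over all libraries, miR-541-5p, ranged from 4915 to 25237 RPM in mESC, from 0 to 74.7 RPM in mNPC and from 1837 to 6096 RPM in mCtx, where miR-410-3p ranged from 5760.2 to 25001 RPM.

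**Figure D2:**
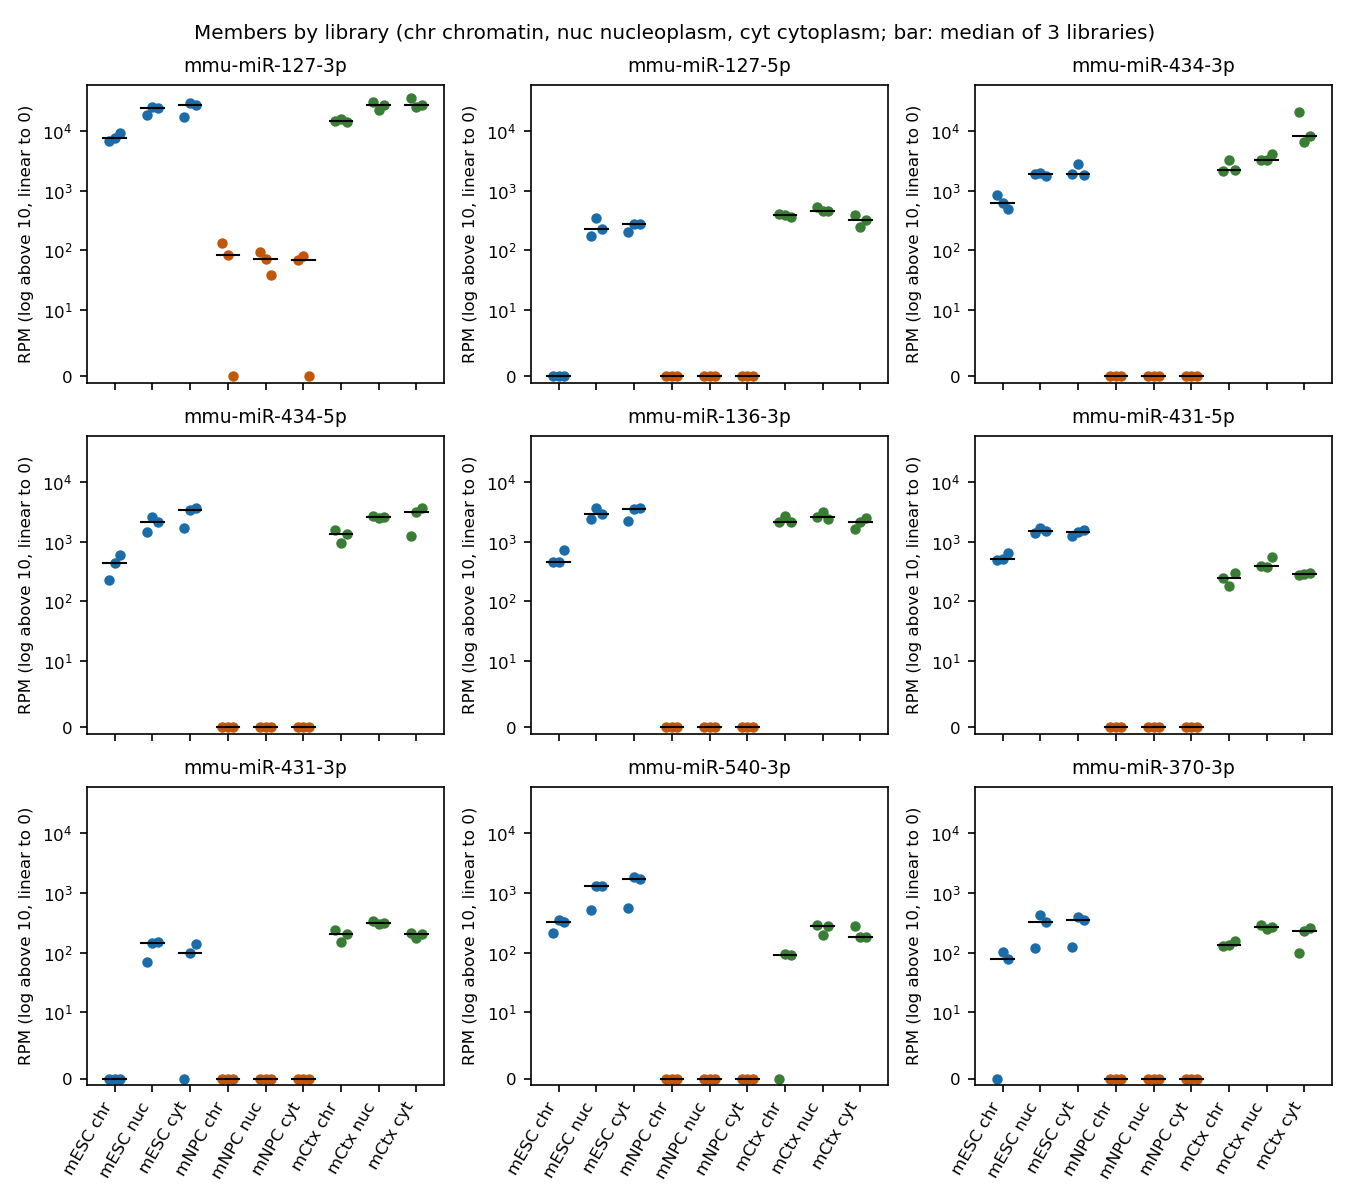
Level of 9 members in each library (vertical axis, RPM, logarithmic above 10 and linear down to 0) in the 9 groups (horizontal axis); each point is a library and each bar the median of 3. miR-127-3p is above 0 in 7 of 9 mNPC libraries and the other 8 members in none, while miR-431-5p and miR-540-3p are lower in mCtx than in mESC and miR-434-3p is higher.

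Within mESC and mCtx, the members ranked by their mean RPM over the 18 libraries as miR-127-3p at 20991 RPM, miR-434-3p at 3788 RPM, miR-136-3p at 2309.8 RPM, miR-434-5p at 1997 RPM and miR-431-5p at 748 RPM. The second place of miR-434-3p came from mCtx: in mESC nucleoplasm and cytoplasm its means, 1880.3 and 2171 RPM, were below those of miR-136-3p (3014 and 3160.5 RPM) and miR-434-5p (2063 and 2920.4 RPM), and the libraries did not overlap only for miR-136-3p in nucleoplasm. In mESC chromatin its mean of 645 RPM was above those of miR-136-3p (541 RPM) and miR-434-5p (422 RPM), with overlapping libraries. The arms ranked above are 21 or 22 nt long, so 1 read stands for about the same length in each. miR-127-3p alone made up 57.6% to 72.8% of the summed RPM of the members in every mESC and mCtx library. The libraries of miR-136-3p and miR-434-5p overlapped in every mESC and mCtx fraction except mCtx chromatin, where miR-136-3p ran from 2109 to 2665 RPM and miR-434-5p from 965 to 1552 RPM. The 8 members ranked below miR-433-3p, which averaged 39.6 RPM, were above 0 in at most 9 of the 18 libraries.

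mCtx and mESC differed member by member and not as a block. miR-673-5p, miR-337-5p, miR-540-3p, miR-665-3p and miR-431-5p were lower in mCtx in at least 1 fraction. miR-127-5p, miR-431-3p and miR-434-3p were higher in at least 2. miR-431-5p, miR-431-3p, miR-127-5p and miR-434-3p all lie antisense to Rtl1, so the direction did not follow the annotation, and no test of position was made. Among the 19 tested members in chromatin, 6 were higher in mCtx and 4 lower, against 22.8% and 29.3% of all tested entries. The nucleoplasm had 3 higher and 4 lower, against 20.9% and 31.3%, and the cytoplasm also 3 higher and 4 lower, against 21% and 24.4%. These counts are near the shares over all entries and are no sign that the members differ from them. The median member difference was 1.51, 0.24 and -0.18 in the 3 fractions, and over all tested entries 0, -0.45 and 0. Rescaling moved the split: with values scaled to the miRNA total, 3 members rose and 5 fell in chromatin, while 2 rose and 4 fell in nucleoplasm. With median-ratio scaling, 7 rose and 1 fell in chromatin, while 7 rose and 0 fell in nucleoplasm. By their mean log2 scale factors, these scalings shift the difference of a well-detected entry by -1.55 and 0.7 in chromatin and by -0.38 and 1.18 in nucleoplasm.

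Of the arms that were lower, miR-431-5p, miR-337-5p and miR-673-5p were lower in all 3 fractions, miR-665-3p in nucleoplasm and cytoplasm, and miR-540-3p in chromatin. miR-431-5p was at 502, 511 and 641 RPM in mESC chromatin, 1407, 1693 and 1489 RPM in nucleoplasm, and 1243, 1477 and 1587 RPM in cytoplasm. In mCtx it was at 250.3, 185 and 304 RPM in chromatin, 389.9, 376 and 549 RPM in nucleoplasm, and 279.5, 288 and 301 RPM in cytoplasm. The libraries of the cell types did not overlap in any fraction, and the log2(RPM + 1) difference was -1.18 (SE 0.22, limma, adjusted p = 8.39e-05), -1.82 (SE 0.22, adjusted p = 4.44e-07) and -2.3 (SE 0.22, adjusted p = 1.26e-08). miR-337-5p was at 105 to 175 RPM in mESC chromatin, 331 to 551 RPM in nucleoplasm and 402 to 768 RPM in cytoplasm, against 64.7 to 75.6, 131.6 to 145.7 and 78.3 to 95.7 RPM in mCtx. Its cytoplasmic difference was -2.85 (SE 0.27, limma, adjusted p = 1.36e-08), with no overlap between libraries. miR-673-5p, at 172 to 472 RPM in mESC and 65.3 to 123.0 RPM in mCtx, was lower in all 3 fractions, by -1.27, -1.9 and -2.37. miR-665-3p ranged from 70 to 346 RPM in mESC and from 0 to 52 RPM in mCtx and was lower in nucleoplasm (-2.82, SE 0.73, limma, adjusted p = 0.00263). In mCtx cytoplasm its libraries were at 0, 19.6 and 18.5 RPM, where it also passed (adjusted p = 4.41e-06). miR-540-3p ranged from 211 to 1838 RPM in mESC and from 0 to 292.2 RPM in mCtx, with no overlap within any fraction, but passed only in chromatin (limma, adjusted p = 0.00521), where mCtx replicate 1 was at 0. All of these arms stayed below 0 under both other scalings. With median-ratio scaling the calls of miR-431-5p (limma, adjusted p = 0.209 and 0.0894), miR-337-5p (0.709 and 0.285) and miR-673-5p (0.158 and 0.0729) were lost in chromatin and nucleoplasm and kept in cytoplasm, and that of miR-665-3p was lost in nucleoplasm (0.05). The miR-540-3p call was lost when only the groups compared were fitted (adjusted p = 0.195).

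miR-434-3p was the abundant member that was higher in mCtx in every fraction. Its mESC libraries were at 828, 619 and 488 RPM in chromatin, 1897, 1956 and 1788 RPM in nucleoplasm, and 1884, 2768 and 1861 RPM in cytoplasm. Its mCtx libraries were at 2161, 3289.7 and 2199 RPM in chromatin, 3231, 3293 and 4079.8 RPM in nucleoplasm, and 20954, 6619 and 8275 RPM in cytoplasm. The cell types did not overlap in any fraction, and mCtx cytoplasm replicate 1 was the highest by far. The differences were 1.99 (SE 0.31, limma, adjusted p = 1.24e-05), 0.9 (SE 0.31, adjusted p = 0.0181) and 2.29 (SE 0.31, adjusted p = 2.43e-06). Without mCtx cytoplasm replicate 1 the cytoplasmic difference was 1.79, still past the threshold, and without mCtx nucleoplasm replicate 3 the nucleoplasmic one was 0.8 and did not pass (adjusted p = 0.0684). Scaled to the miRNA total, the differences in chromatin and nucleoplasm were 0.44 and 0.52 and did not pass (adjusted p = 0.25 and 0.168), while the cytoplasmic one, 2.0, did.

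The less abundant arms of miR-127 and miR-431 were also higher in mCtx, each in some fractions. miR-127-5p was at 0 in all 3 mESC chromatin libraries, whose lowest listed values were 45.2 to 54.8 RPM, and at 411, 396 and 358 RPM in mCtx chromatin. In nucleoplasm it was at 176, 342 and 224 RPM in mESC and at 541, 456 and 454 RPM in mCtx, a difference of 1.01 (SE 0.25, limma, adjusted p = 0.0016), and the libraries did not overlap. In cytoplasm the libraries overlapped, and the difference of 0.32 did not pass (adjusted p = 0.364). miR-431-3p was at 0 in mESC chromatin and at 238.5, 153.4 and 203.4 RPM in mCtx chromatin. It was at 69.0, 146.5 and 153.4 RPM in mESC nucleoplasm against 339, 299.6 and 312 RPM in mCtx, and at 0, 97.6 and 139 RPM in mESC cytoplasm against 212, 174 and 203 RPM in mCtx, with no overlap in either. The cytoplasmic call (limma, adjusted p = 0.0253) was lost when mESC cytoplasm replicate 1, at 0, was left out (difference 0.75, adjusted p = 0.0602) and when any one mCtx cytoplasm library was (adjusted p = 0.0507 to 0.061). The nucleoplasmic difference of 1.44 did not pass (adjusted p = 0.276) but did without that same mESC cytoplasm library (adjusted p = 0.000179).

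In chromatin, but in neither other fraction, miR-136-3p and miR-434-5p passed as well and were higher in mCtx. miR-136-3p was at 449.8, 456 and 718 RPM in mESC chromatin and at 2109, 2665 and 2172 RPM in mCtx chromatin, a difference of 2.12 (SE 0.23, limma, adjusted p = 1.36e-07). miR-434-5p was at 225, 443 and 597 RPM against 1552, 965 and 1356 RPM, a difference of 1.69 (SE 0.38, adjusted p = 0.00079). Scaled to the miRNA total these were 0.58 (adjusted p = 0.04) and 0.15 (adjusted p = 0.931), so miR-434-5p no longer passed, and miR-136-3p was then lower in mCtx cytoplasm (-0.87, adjusted p = 0.00406). In nucleoplasm and cytoplasm libraries of the cell types overlapped for both, and the nearest to passing was miR-136-3p in cytoplasm (-0.57, adjusted p = 0.0526). miR-127-3p, with a chromatin difference of 0.94 (SE 1.42), did not pass (limma, adjusted p = 0.702) although its libraries did not overlap. Its SE is shared with the mNPC groups, which hold libraries at 0. For the other tested members every mNPC library was at 0, so those groups had no spread, which makes a shared SE smaller. In a fit without the mNPC libraries, chosen after the data were seen, the chromatin difference of miR-127-3p had an SE of 0.21 and an adjusted p of 0.00174. Scaled to the miRNA total it turned to -0.61 (adjusted p = 0.912).

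miR-370-3p, from an intron of Rian, was at 0, 104 and 76.7 RPM in mESC chromatin and at 129.9, 135 and 158 RPM in mCtx chromatin, and passed there (limma, adjusted p = 0.0346), but not when scaled to the miRNA total (adjusted p = 0.258) or with all values raised to 59.1 RPM (adjusted p = 0.113). Left out in turn, mESC chromatin replicate 1, at 0, brought the difference to 0.65 (adjusted p = 0.346), and each mCtx chromatin library brought the adjusted p to 0.0634 to 0.079. The hairpin entry mmu-mir-370 was above 0 in 3 libraries, all of mCtx: 35.6 RPM in nucleoplasm replicate 3, and 58.7 and 64.7 RPM in cytoplasm replicates 2 and 3. Its cytoplasmic call against mESC (adjusted p = 0.0103) was lost without either of those cytoplasm libraries (adjusted p = 0.0718 and 0.0752). miR-770-5p, the Meg3 exon miRNA, was above 0 in 5 libraries, all of mCtx, and was higher than in mESC in nucleoplasm, where its libraries were at 72.4, 37.2 and 20.6 RPM (limma, adjusted p = 0.000158) and the mESC libraries were at 0 with lowest listed values of 15.7 to 27.1 RPM. With all values raised to 59.1 RPM, only the library at 72.4 RPM stood above that level, and the difference of 5.3 became 0.1 and did not pass (adjusted p = 0.0998); the mmu-mir-370 call was lost likewise (0.04, adjusted p = 0.112). miR-341-3p, miR-433-3p, miR-136-5p, miR-673-3p and miR-370-5p did not pass between mCtx and mESC in any fraction.

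**Figure D3:**
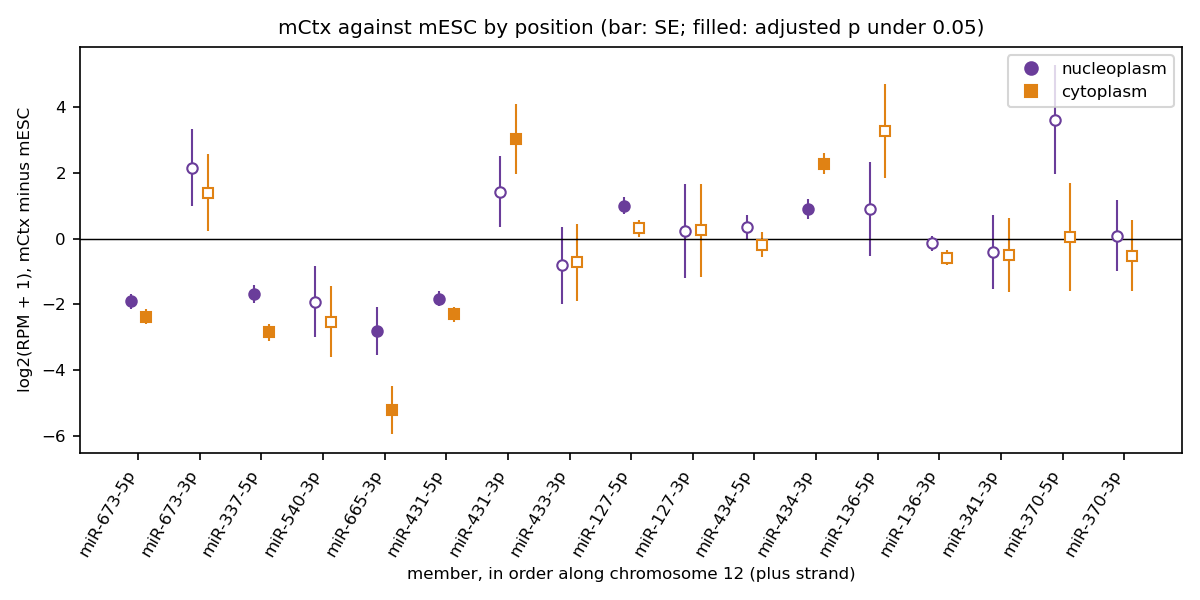
Difference in log2(RPM + 1), mCtx minus mESC (vertical axis), for the 17 tested members above 0 in both cell types in order along chromosome 12 (horizontal axis, not to scale); circles are nucleoplasm, squares cytoplasm, bars the SE from limma, filled symbols an adjusted p under 0.05. The filled symbols up to miR-431-5p are all below 0 and those from miR-431-3p on are all above 0, but miR-770-5p, upstream of all of these and higher in mCtx nucleoplasm by 5.3, is not plotted, nor is mmu-mir-370, because both were at 0 in mESC.

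Ratios within a library do not depend on its scaling. They were compared between cell types or fractions in 12 exact permutation tests, two-sided, with p-values adjusted over the 12. The ratio of miR-434-3p to miR-127-3p, 2 arms from neighbouring genes, was 0.0518 to 0.124 in the 9 mESC libraries and 0.107 to 0.598 in the 9 mCtx libraries. Its mean log2 was -3.57 in mESC and -2.32 in mCtx, a difference of 1.25 with an exact p of 0.00025, the smallest that 8000 assignments allow, and an adjusted p of 0.003. Leaving out any 1 library kept the difference between 1.13 and 1.35 (adjusted p at most 0.009). The assignments exchange cell types in each fraction on its own, as if the fractions were independent. The labels do not say whether fractions share cultures, and if they do, p-values of cell type comparisons pooled over fractions are too small. Within a fraction the cell types did not overlap: 0.0518 to 0.124 against 0.147 to 0.204 in chromatin, 0.0727 to 0.104 against 0.107 to 0.151 in nucleoplasm, and 0.0674 to 0.109 against 0.267 to 0.598 in cytoplasm.

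The arm balance of miR-431 also differed, which is given as values because the 3p arm was at 0 in 4 mESC libraries. The ratio of miR-431-3p to miR-431-5p was 0.0491, 0.0865 and 0.103 in mESC nucleoplasm and 0.0661 and 0.0873 in the cytoplasm libraries where both arms were above 0. For mCtx chromatin it was 0.953, 0.83 and 0.669, for mCtx nucleoplasm 0.87, 0.796 and 0.569, and for mCtx cytoplasm 0.76, 0.605 and 0.676. All 9 mCtx values lay above the 5 mESC values. The sum of the arms followed the more abundant 5p arm and was lower in mCtx nucleoplasm by -1.13 (limma, adjusted p = 6.22e-05) and in mCtx cytoplasm by -1.63 (adjusted p = 7.94e-07).

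The ratio of miR-434-3p to miR-434-5p was 0.511 to 3.68 in the mESC libraries and 1.21 to 16.8 in those of mCtx, with overlap. The log2 difference of 1.1 had an exact p of 0.022 and an adjusted p of 0.108, and did not pass. Without mESC chromatin replicate 1, whose ratio was 3.68, it was 1.3 with an adjusted p of 0.0135 (exact permutation test). The value of 16.8 came from mCtx cytoplasm replicate 1, and the other 2 libraries of that group were at 2.1 and 2.22. The ratio of miR-127-3p to miR-127-5p in mCtx was 35.8 to 40.7 in chromatin, 49.9 to 59.3 in nucleoplasm and 87.1 to 103 in cytoplasm, with no overlap between fractions. With 3 libraries against 3 the smallest exact p is 0.1, which chromatin against cytoplasm reached (adjusted p = 0.133). In mESC nucleoplasm and cytoplasm the same ratio was 73.2 to 109.6. None of the other ratio tests passed after adjustment.

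**Figure D4:**
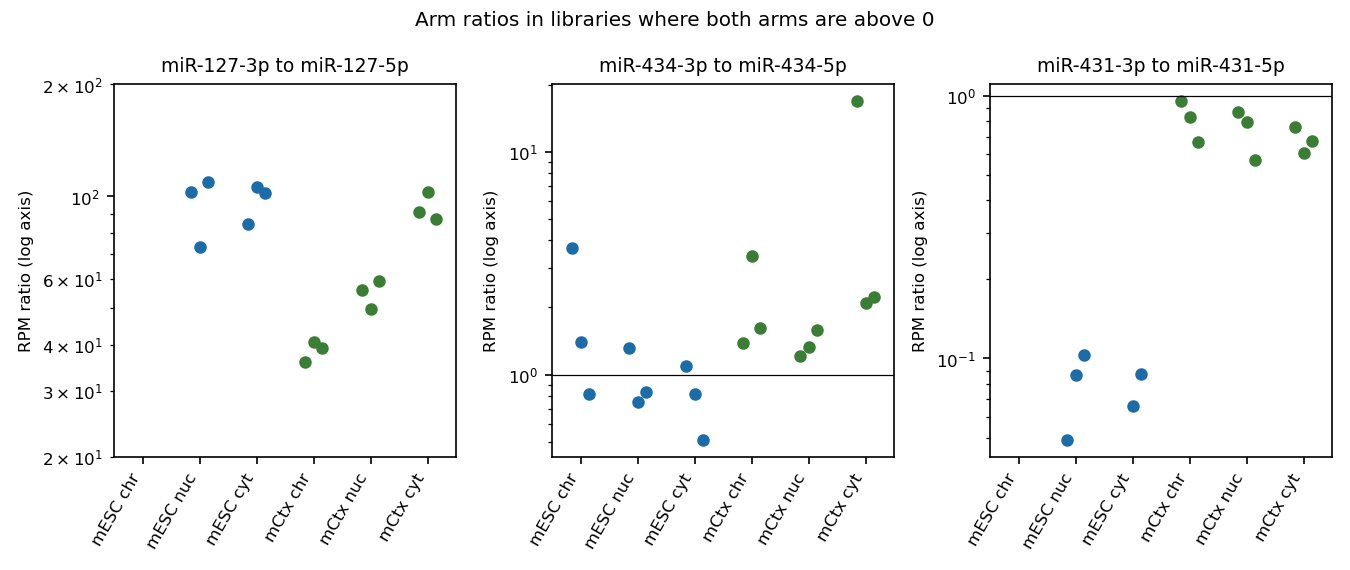
Ratio of the RPM of the 3p arm to that of the 5p arm (vertical axis, logarithmic) for miR-127, miR-434 and miR-431 in mESC and mCtx groups (horizontal axis); each point is a library with both arms above 0. The miR-431 ratio is at most 0.103 in mESC and at least 0.569 in mCtx, and mCtx cytoplasm replicate 1 has the highest miR-434 ratio, 16.8.

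Across fractions, mESC chromatin held fewer RPM of most members than mESC cytoplasm. Of 19 tested members, 12 were lower in chromatin and none higher, against 29.5% of all tested entries lower and 24.9% higher. Of the 418 tested miRNA entries, 195 were lower and 12 higher. The median member difference was -2.07, against 0 over all tested entries and -1.59 over the tested miRNA entries. miR-136-3p was lower by -2.54 (SE 0.23, limma, adjusted p = 1.17e-08) and miR-434-5p by -2.83 (SE 0.38, adjusted p = 2.2e-06). Chromatin against nucleoplasm in mESC gave the same count of 12 lower members, against 30.9% of all entries lower and 19.9% higher. Of the 418 tested miRNA entries, 215 were lower there and 12 higher. The median was -1.7 both for the members and for the tested miRNA entries, so the members did not stand apart from other miRNAs there. For nucleoplasm against cytoplasm 1 member passed, miR-136-5p, which was above 0 in 2 of the 3 nucleoplasm libraries, against 14% of all entries higher and 5.17% lower (limma, adjusted p = 0.0478). That call was lost on leaving out any one of 21 libraries, among them mESC nucleoplasm replicates 1 and 2, and under the other scalings.

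These mESC differences were read beside the low miRNA share of mESC chromatin. Scaled to the miRNA total of each library, 6 members were lower in chromatin than in cytoplasm and 1 was higher. By the mean log2 scale factors, this shifts the difference of a well-detected entry by 1.73. Under that scaling miR-673-5p turned from -0.97 (limma, adjusted p = 0.00107) to 0.76 (adjusted p = 0.012), miR-431-5p from -1.38 to 0.35 (adjusted p = 0.236) and miR-127-3p from -1.62 to 0.11. miR-136-3p and miR-434-5p stayed lower and past the threshold. With median-ratio scaling 9 members were lower and 0 higher. miR-127-5p, at 0 in mESC chromatin and at 204, 276 and 271 RPM in mESC cytoplasm, does not depend on scaling for being listed at 0, but with lowest listed values of 45.2 to 54.8 RPM there, a level below these was not detectable.

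In mCtx the count of members that passed between chromatin and cytoplasm was 5, and between nucleoplasm and cytoplasm 3. For chromatin against cytoplasm 4 were lower and 1 higher, against 23.9% and 20.2% of all tested entries. miR-434-3p was lower in chromatin than in cytoplasm (-2.07, SE 0.31, limma, adjusted p = 1.07e-05) and lower in nucleoplasm than in cytoplasm (-1.57, SE 0.31, adjusted p = 0.000572). Without mCtx cytoplasm replicate 1 these were -1.57 and -1.07 and both still passed. With median-ratio scaling they were -0.84 (adjusted p = 0.0958) and -0.76 (adjusted p = 0.169) and neither passed, and the second was also lost when only the groups compared were fitted (adjusted p = 0.0659). miR-673-3p was at 0 in all mCtx chromatin libraries and at 55.9, 25.1 and 29.4 RPM in cytoplasm (adjusted p = 0.0011), and miR-665-3p was the member higher in chromatin, at 52, 27.7 and 45.2 RPM against 0, 19.6 and 18.5 RPM (adjusted p = 0.00837). All these values lie under 59.1 RPM, and raised to it both members had a difference of 0 and no call. For nucleoplasm against cytoplasm 2 were higher, miR-770-5p and miR-665-3p, and 1 lower, against 13.5% and 11.8% of all entries. The call for miR-665-3p was lost without mCtx cytoplasm replicate 1 (adjusted p = 0.0839) or mCtx nucleoplasm replicate 1 (adjusted p = 0.0829), and with all values raised to 59.1 RPM neither miR-770-5p (0.1, adjusted p = 0.191) nor miR-665-3p (difference 0) passed. For chromatin against nucleoplasm 6 were lower and none higher, against 17.2% of all entries lower and 14.9% higher. Of the 418 tested miRNA entries, 110 were lower in that comparison and 7 higher. With values scaled to the miRNA total, 4 were lower and 4 higher for chromatin against cytoplasm, and with median-ratio scaling 2 were lower and 6 higher.

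The chromatin to cytoplasm difference itself differed between mCtx and mESC for 8 of 19 tested members, all less negative or more positive in mCtx, against 22.3% of all tested entries in that direction and 20.1% in the other. Of the 418 tested miRNA entries, 129 passed in that direction and 41 in the other. The median member value was 1.45, against 0 over all tested entries and 0.94 over the tested miRNA entries. Scaled to the miRNA total, 4 members passed in that direction and 1 in the other. miR-136-3p showed the difference plainly: mESC chromatin was at 449.8 to 718 RPM and mESC cytoplasm at 2212 to 3699 RPM, while mCtx chromatin at 2109 to 2665 RPM overlapped mCtx cytoplasm at 1662 to 2523 RPM (interaction 2.69, SE 0.33, limma, adjusted p = 1.42e-06). For nucleoplasm against cytoplasm the interaction passed for 1 member in each direction, miR-337-5p and miR-434-3p, against 6.35% and 13.2% of all tested entries. That split depended on the scaling, with 7 members in the positive direction and 0 in the negative under median-ratio scaling, and 0 and 1 when scaled to the miRNA total.

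**Figure D5:**
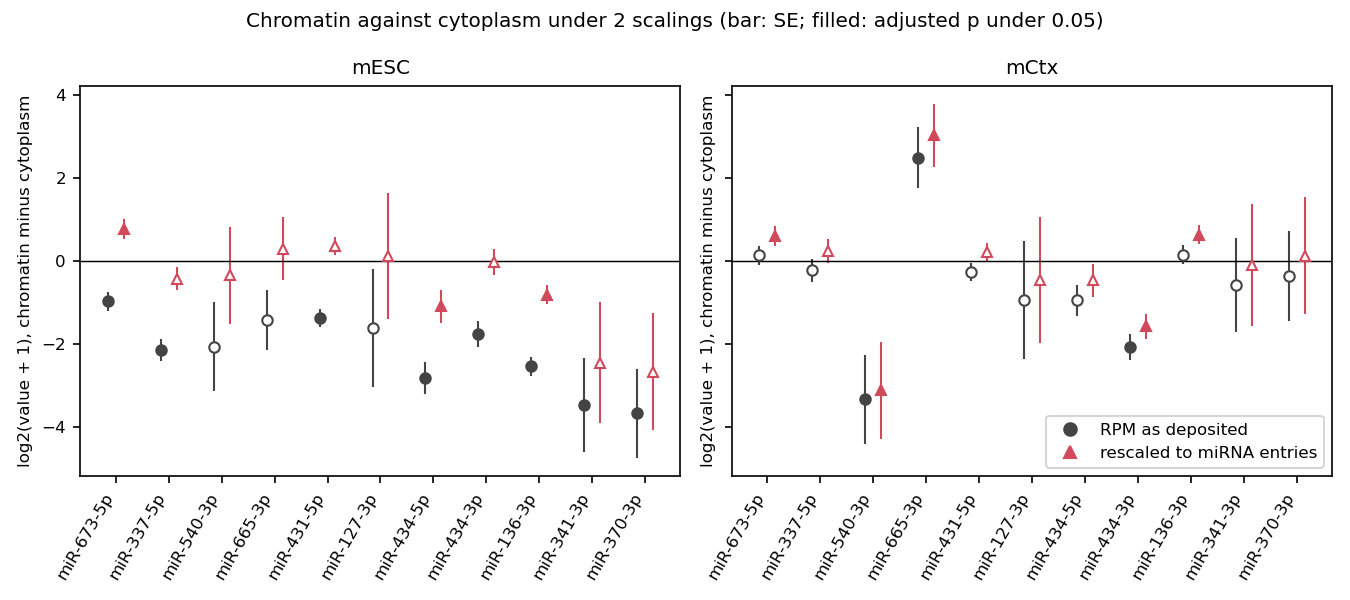
Difference in log2(value + 1), chromatin minus cytoplasm (vertical axis), of 11 members (horizontal axis) in mESC and mCtx; circles are RPM as deposited, triangles values rescaled to the miRNA total of each library, bars the SE from limma, filled symbols an adjusted p under 0.05. In mESC rescaling moves miR-673-5p from -0.97 to 0.76 and miR-431-5p from -1.38 to 0.35, whereas miR-136-3p and miR-434-5p stay below 0 in mESC under both.

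The entries whose levels were most like those of miR-127-3p and miR-434-3p over the 27 libraries were all miRNAs of the same domain, downstream of the interval. For miR-127-3p the 5 highest Pearson correlations of log2(RPM + 1) were with miR-411-5p (0.953), miR-410-3p (0.945), miR-381-3p (0.944), miR-666-5p (0.939) and miR-541-5p (0.937). For miR-434-3p they were with miR-410-3p (0.996), miR-381-3p (0.991), miR-666-5p (0.979), miR-300-3p (0.974) and miR-380-3p (0.955). These values describe libraries that share scaling and the 9 mNPC libraries at or near 0, which set much of each correlation. miR-410-3p, from the Mirg end of the domain at chr12:109743764-109743784, ranged from 1838 to 10697 RPM in mESC, was at 0 in mNPC and ranged from 5760.2 to 25001 RPM in mCtx. miR-541-5p was like miR-127-3p over all libraries but reached higher levels in mESC than in mCtx.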

How the data were processed

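Small RNA of 27 libraries was measured; per the labels' protocols, RNA below 200 nt was depleted of rRNA, made into gel-selected libraries (120 to 160 bp) and sequenced from one end for 100 bp. The deposited values are RPM, scaled by the authors, with low values listed as 0; aligner, counting rule and genome build: not given in the sources used here. Read depth is unknown, so no counting intervals are given. The members' coordinates were those of RefSeq GRCm38.p6. Levels were tested on log2(RPM + 1) with limma 3.58.1 in R 4.3.3 (intensity trend, robust variance), 9 group means, 18 residual degrees of freedom, on 851 entries (1 RPM or more in 3 or more libraries); p-values were adjusted by Benjamini-Hochberg within each of 24 contrasts, at a threshold of 0.05. Where libraries were listed at 0, differences on this scale depend on the added 1. Groups with all libraries at 0 add no spread, so an SE shared with them is smaller. With a common floor of 59.1 RPM the median member difference, mNPC minus mESC in chromatin, went from -4.61 to -0.67. Ratios used exact permutation tests. The tests were checked on simulated data without values at 0 and with the same spread for all entries. That check does not cover calls that rest on libraries listed at 0. Every member was named; the other entries named are the 5 most correlated with miR-127-3p and with miR-434-3p and the most abundant of the domain. The members and lists were chosen with earlier results of these data known. Alternatives covered the pseudocount, a common floor, filters, 2 scalings, the groups fitted, the variance model, a replicate block, summed arms and leaving out each library.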

Additional observations from a re-analysis of the deposited data

Results flagged for a closer look

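The results here are those where the fraction difference of a member, measured in mESC and in mCtx, differed between the cell types by the interaction test of limma (adjusted p under 0.05). For chromatin against cytoplasm, mCtx minus mESC, the interaction on the log2(RPM + 1) scale was 1.1 for miR-673-5p, 1.92 for miR-337-5p, 3.91 for miR-665-3p, 1.12 for miR-431-5p, 4.58 for miR-431-3p, 8.29 for miR-127-5p, 1.88 for miR-434-5p and 2.69 for miR-136-3p. miR-431-3p and miR-127-5p were at 0 in all mESC chromatin libraries, so their sizes depend on the added 1. Scaled to the miRNA total, the values of miR-673-5p and miR-431-5p turned to -0.15 and -0.13. Those of miR-337-5p (0.67, adjusted p = 0.193) and miR-434-5p (0.63, adjusted p = 0.407) no longer passed. The miR-431-3p interaction lost its call without mESC cytoplasm replicate 2 (adjusted p = 0.0678) or replicate 3 (adjusted p = 0.0694).

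For nucleoplasm against cytoplasm the interaction was 1.18 for miR-337-5p and -1.39 for miR-434-3p. In mCtx cytoplasm miR-434-3p was at 20954, 6619 and 8275 RPM, against 3231, 3293 and 4079.8 RPM in nucleoplasm, while in mESC both fractions lay between 1788 and 2768 RPM. Its call was lost without mESC cytoplasm replicate 1 or 3 or mCtx nucleoplasm replicate 1 or 2 (adjusted p 0.0587 to 0.0681). The call of miR-337-5p was lost when any one of 6 libraries was left out: mESC nucleoplasm replicate 1, mESC cytoplasm replicates 2 and 3, mCtx nucleoplasm replicates 1 and 3, and mCtx cytoplasm replicate 2 (adjusted p 0.0507 to 0.0867). Under median-ratio scaling miR-434-3p did not pass (-0.35, adjusted p = 0.757), and scaled to the miRNA total miR-337-5p did not (1.1, adjusted p = 0.06).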

How the results depend on the processing

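Depth was not given, and values under 5.16 to 59.1 RPM are listed at 0, which limits every statement on low members. No mNPC difference from mESC or mCtx was reversed under an alternative run, but under a common floor 10 that had passed became 0. Raising all values to a common floor of 59.1 RPM brought the members higher in mCtx than in mNPC from 14 to 9 in chromatin and from 16 to 10 in cytoplasm. The cause of the changes below was not tested, except where fewer entries or samples were fitted.

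Scaling to the miRNA total changed the counts of passing members as follows: mESC chromatin against cytoplasm from 12 to 7, mESC chromatin against nucleoplasm from 12 to 5, mCtx chromatin against cytoplasm from 5 to 8, mCtx chromatin against nucleoplasm from 6 to 3, the chromatin to cytoplasm interaction from 8 to 5, the nucleoplasm to cytoplasm interaction from 2 to 1, and mESC nucleoplasm against cytoplasm from 1 to 0. It turned the sign of miR-127-3p for mCtx against mESC in chromatin (-0.61), nucleoplasm (-0.14) and cytoplasm (-0.04), for mESC chromatin against cytoplasm (0.11) and nucleoplasm (0.2), and for the chromatin to cytoplasm interaction (-0.58). It also turned miR-673-5p (0.76 and 0.75) and miR-431-5p (0.35 and 0.24) for mESC chromatin against cytoplasm and nucleoplasm, miR-337-5p (0.01) and miR-434-3p (0.14) for mESC chromatin against nucleoplasm, miR-434-3p for the same in mCtx (0.06), and the chromatin to cytoplasm interactions of miR-673-5p (-0.15) and miR-431-5p (-0.13). Median-ratio scaling gave 5 for mESC chromatin against nucleoplasm, 8 for mCtx chromatin against cytoplasm, 3 for mCtx chromatin against nucleoplasm, 7 for mCtx nucleoplasm against cytoplasm, 7 for the nucleoplasm to cytoplasm interaction, 0 for mESC nucleoplasm against cytoplasm, and turned miR-127-3p in mCtx chromatin (0.27) and nucleoplasm (0.69) against cytoplasm and the miR-434-3p chromatin to cytoplasm interaction (0.25).

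The common floor gave 3 for mCtx chromatin against cytoplasm, 5 for mCtx nucleoplasm against cytoplasm, and turned the miR-431-3p nucleoplasm to cytoplasm interaction (0.37). Fitting only the groups compared gave 0 for mESC nucleoplasm against cytoplasm, 3 for mCtx chromatin against cytoplasm, and 5 and 0 for the interactions of chromatin and nucleoplasm. Leaving out the mNPC libraries, an alternative chosen after seeing the data, gave 0 and 1 for mESC nucleoplasm against cytoplasm and its interaction. Among the results of single members followed there, 12 lost their call, 5 gained one and 74 stayed the same. mESC nucleoplasm against cytoplasm also fell to 0 with a pseudocount of 0.5, with no filter and with a stricter filter. mCtx nucleoplasm against cytoplasm rose to 6 with a pseudocount of 10 and with limma without trend and robust variance. Summed arms and hairpins, whose counts are of another unit and are not compared, turned miR-431-3p for mCtx against mESC in chromatin (-0.32), nucleoplasm (-1.13) and cytoplasm (-1.63) and its nucleoplasm to cytoplasm interaction (0.5), mmu-mir-370 for mCtx against mESC in cytoplasm (-0.14), miR-136-5p for mESC nucleoplasm against cytoplasm (-0.03) and the miR-434-3p chromatin to cytoplasm interaction (0.37).

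Same-numbered libraries were not paired by the labels, and their deviations correlated over 0.1 in 8 of 27 pairs of fractions (-0.12 to 0.187) and 0 of 27 pairs of cell types (-0.076 to 0.096). With a replicate block, the count was 0 for mESC nucleoplasm against cytoplasm, 5 for mCtx nucleoplasm against cytoplasm and 1 for the nucleoplasm to cytoplasm interaction; no other count moved by over 1.5 times, and no ratio changed its call.

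Leaving out each library in turn, the passing members ranged from 0 to 2 for mESC nucleoplasm against cytoplasm, from 2 to 6 for the same in mCtx (6 without mESC nucleoplasm replicate 1, 5 without replicate 2) and from 0 to 4 for its interaction. The log2 ratio of miR-434-3p to miR-434-5p ranged from 0.77 to 1.3 between cell types and from -0.32 to 0.47 for chromatin against cytoplasm, and that of miR-434-3p to miR-127-3p from -0.02 to 0.3 for chromatin against nucleoplasm. Nucleoplasm against cytoplasm ranged from -0.01 to 3.56 for miR-431-3p, -0.34 to 0.04 for miR-127-3p and -0.28 to 0.01 for miR-434-3p in mESC, and from -0.24 to 0.01 for miR-127-3p in mCtx. The interactions ranged from -0.64 to 0.19 (miR-434-3p, chromatin to cytoplasm) and from -2.87 to 0.7 (miR-431-3p, nucleoplasm to cytoplasm).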
